A study of Homo sapiens with 3 samples.

Results

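The genes described here are 58 genes of mitosis, the kinetochore and cytokinesis, out of 19266 genes in the deposited tables. They were chosen by symbol, through the Entrez gene identifier of each row: mitotic cyclins and kinases, kinesins, and genes of the kinetochore, the spindle checkpoint and cytokinesis. All 58 were found, and all 58 passed the filter on low counts. The cells were KYSE510, an established human line of esophageal squamous cell carcinoma. Every group received a lentivirus that carries a short hairpin RNA for 24 h and was then kept under 4 µM puromycin, the selection drug, for 48 h. The control group carried a scrambled hairpin, and the groups sh1 and sh2 each carried 1 of 2 different hairpins (#1 and #2) against the transcript TCONS_02256997. The study set out to screen for possible targets of that transcript, whose own level is not analysed here. There was 1 sample per group, each with 3 numbered tables, which were treated as 3 libraries (n = 3). Nothing in the labels tells separate cultures from separate libraries or runs, so every SD, SE and p-value below measures only the spread between tables of 1 sample, which may be technical.

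A dividing cell builds up cyclin B and the kinase CDK1, which together drive entry into mitosis. Kinesin motors and associated proteins then build the spindle, and the kinetochore ties each chromosome to it. The spindle checkpoint holds back the anaphase promoting complex until every kinetochore is attached. CDC20 then activates that complex, separase cuts cohesin, and the central spindle directs the cell to cleave. Most of these genes are transcribed late in the cell cycle. Their promoters are known for CCAAT boxes, bound by the factor NF-Y, and for the cell cycle genes homology region, bound by complexes that share the MuvB core. With the pocket proteins, as the DREAM complex, MuvB represses these genes in resting cells. With MYBL2 and FOXM1 it activates them in G2.

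Promoter sequences of 4 members are shown, as examples of genes that changed in different ways with the hairpins. They were taken from members with the highest or lowest log2 changes that hold a match to these motifs. That the sequences carry the motifs was thus set by the choice. CDC20 rose more with sh2, INCENP rose more with sh1, and CDCA8 and ECT2 were called in opposite directions. Each sequence is the 120 bases before the annotated start, from RefSeq on build GRCh38.p14. Capitals mark the CCAAT box (CCAAT or, on the other strand, ATTGG) and the homology region (TTTGAA, its reverse TTCAAA, or TTCGAA). In CDCA8 the last CCAAT box, on the other strand, shares 1 base with the homology region.
CDC20 (chr1:43358861-43358980, plus strand): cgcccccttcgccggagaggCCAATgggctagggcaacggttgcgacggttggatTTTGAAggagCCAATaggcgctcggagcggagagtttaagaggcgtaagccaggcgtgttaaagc
INCENP (chr11:62123891-62124010, plus strand): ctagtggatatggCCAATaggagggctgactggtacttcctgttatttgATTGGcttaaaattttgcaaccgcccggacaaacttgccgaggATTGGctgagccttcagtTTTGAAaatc
CDCA8 (chr1:37692396-37692515, plus strand): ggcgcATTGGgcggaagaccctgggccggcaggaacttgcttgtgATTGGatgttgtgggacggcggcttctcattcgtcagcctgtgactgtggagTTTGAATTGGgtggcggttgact
ECT2 (chr3:172750606-172750725, plus strand): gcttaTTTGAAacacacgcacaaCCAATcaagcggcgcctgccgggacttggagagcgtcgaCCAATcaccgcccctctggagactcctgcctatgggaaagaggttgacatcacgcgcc

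The RefSeq table gives a window from 250 bases before to 50 after the annotated start, with 35116 entries in all. It holds 59 entries for 48 of the 58 members, since some genes have several starts. The members without an entry used here were FOXM1, AURKA, TTK, PBK, BUB3, UBE2C, BIRC5, TPX2, CDCA2 and RACGAP1. A CCAAT box stood in 44 of the 59 member windows (74.6%), against 34.6% of all windows. The homology region stood in 42 (71.2%), against 16.4%, and 34 windows (57.6%) held both, against 6.38%. The matches lay close to the start. The median first base of a homology region match was 26 bases before it, and that of a CCAAT match 73.5 bases before it. These matches are letters in a window, not measured binding sites.

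**Figure D1:**
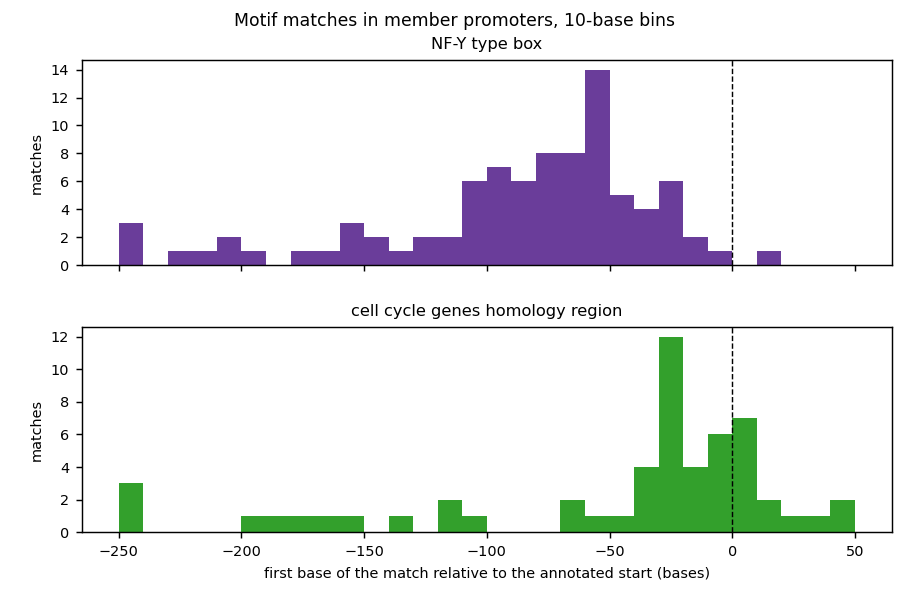
Number of motif matches in the 59 promoter windows of 48 members, in bins of 10 bases, by the distance of the first base of the match from the annotated start (dashed line). The upper panel shows the NF-Y type box (88 matches, both strands) and the lower panel the cell cycle genes homology region (55 matches), whose median position is 26 bases before the start.

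Total expected counts per library were 14660821 to 16092417, and member counts ranged from 171 (CDC25C) to 12143 (MKI67) per library. In a principal component analysis, 46.1% and 37.9% of the variance fell on the leading axes. CPM, the count scaled to the TMM-adjusted library size, compares 1 gene between libraries, and TPM, which is per transcript length, compares genes with each other. The squamous keratin gene KRT5 stood at 1496 CPM in control and the squamous lineage factor gene TP63 at 518 CPM. Of 7 leukocyte markers, 2 stayed below 1 CPM in every library, as did 3 of 6 endothelial and 6 of 7 fibroblast markers. The leukocyte list summed to 84.4 to 88.4 CPM in control, and to 131 to 138 and 123 to 139 CPM in the sh1 and sh2 libraries, most of it from CD68 (78.2 CPM in control), a lysosomal gene that other cells also express. The endothelial list summed to 13.4 to 15.4, 15.8 to 21.2 and 15.1 to 17.6 CPM, and the fibroblast list, nearly all COL1A1, to 48.2 to 50.9, 53.8 to 60.1 and 67 to 70 CPM. The squamous list summed to 6334 to 6439, 4358 to 4440 and 5243 to 5331 CPM. The part of these changes in the results below was not tested.

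The mitotic genes stood higher with each hairpin than in control, and higher with sh2 than with sh1. Summed over the 58 members, their level was 5142 to 5232 CPM in control. It was 6137 to 6208 CPM in the sh1 libraries and 8405 to 8480 CPM in the sh2 libraries. The 3 groups did not overlap. With sh1, 47 members were called (81%, beside 69.3% of all 13580 tested genes). Of these, 39 rose and 8 fell (67.2% and 13.8%), where 34.7% of all genes rose and 34.6% fell. With sh2, 53 members were called (91.4%, beside 68.5% of all genes). Of these, 51 rose and 2 fell (87.9% and 3.45%), where 34.2% of all genes rose and 34.3% fell. The median log2 change of the members was 0.29 with sh1 and 0.68 with sh2, beside 0.01 and 0.00 for all tested genes. Against each other, sh1 was lower than sh2 for 44 members and higher for 7 (75.9% and 12.1%), where 35.6% of all genes were lower and 34.2% higher. The median difference was -0.39, beside 0.00 for all genes. A call is a p below 0.05 in the quasi-likelihood test of edgeR, after Benjamini-Hochberg adjustment over all tested genes. The CPM ranges of control and sh1 did not overlap for 49 members (71.9% of all genes), those of control and sh2 for 53 (70.3% of all genes), and those of sh1 and sh2 for 53 (71.9% of all genes). Both comparisons with control use the same control libraries. In bulk RNA, more cells in one phase of the cycle and more RNA per cell cannot be told apart.

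**Figure D2:**
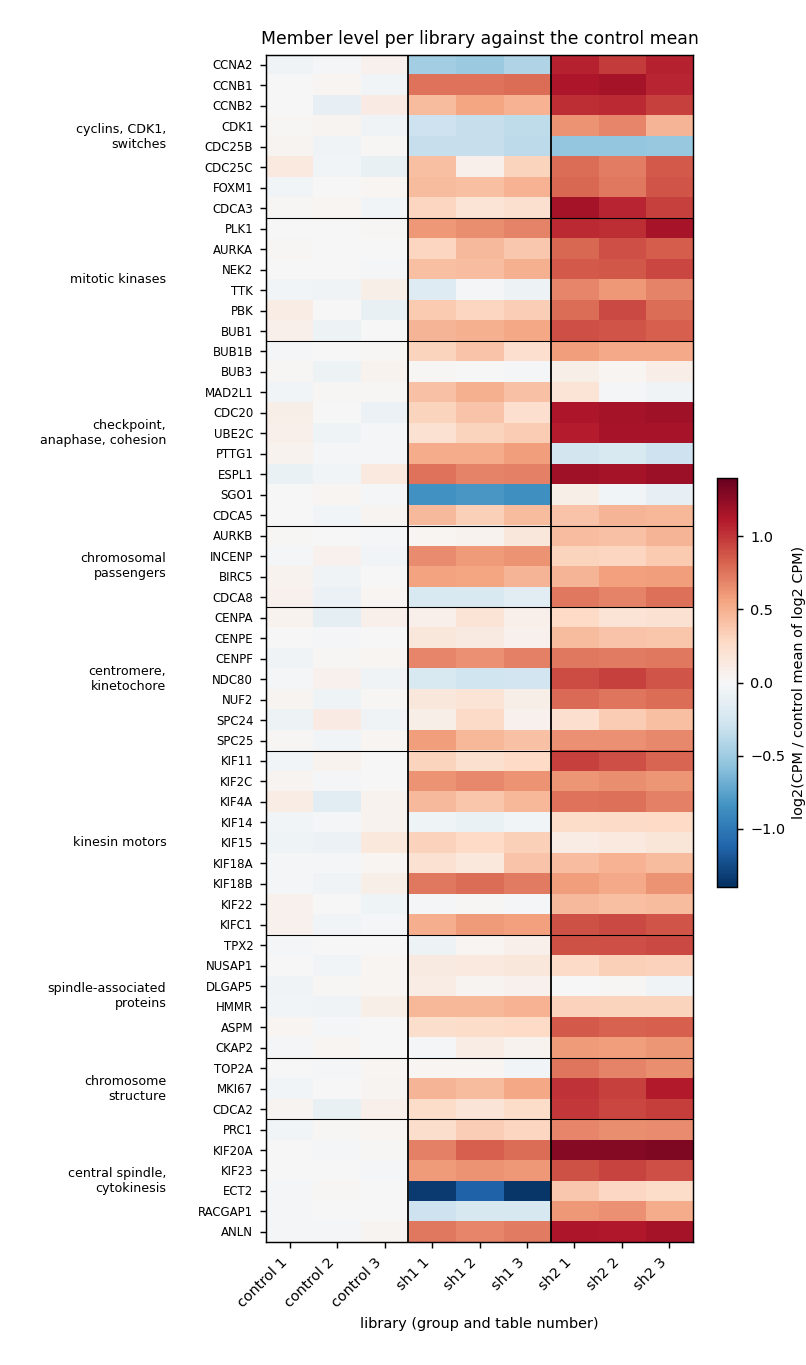
Level of each of the 58 members (rows, grouped by role) in each of the 9 libraries (columns), as log2 CPM minus the mean of log2 CPM in control; red is above the control mean and blue below. The sh2 columns are red for most rows, with CDC25B blue at -0.54, and the sh1 columns are paler and include the blue rows ECT2 (-1.27), SGO1 (-0.84) and CCNA2 (-0.47).

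Members past 2-fold were a smaller share than over all genes with sh1 and a larger share with sh2. With sh1 only ECT2 passed 2-fold, as a fall, where 9.15% of all genes were called at 2-fold or more. With sh2, 11 members did, all as rises, where 7.75% of all genes were called at that size: CCNA2, CCNB1, CCNB2, CDCA3, PLK1, CDC20, UBE2C, ESPL1, MKI67, KIF20A and ANLN. In control, the highest member by TPM was PTTG1 (securin, the inhibitor of separase) at 212 ± 3.29 TPM and the lowest KIF15 at 11.5 ± 1.13 TPM (SD, n = 3). The median member stood at 61.8 TPM, beside 24.4 TPM for all tested genes.

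Both B-type cyclins and FOXM1 rose with each hairpin, CDC25B fell with each, and CDK1 and cyclin A2 fell with sh1 and rose with sh2. Of the 8 genes of this group, 5 rose and 3 fell with sh1 (62.5% and 37.5%, beside 34.7% and 34.6% of all genes). With sh2, 7 rose and 1 fell (87.5% and 12.5%, beside 34.2% and 34.3%). CCNB1 (Entrez gene 891) encodes cyclin B1, the main partner of CDK1 in mitosis. CCNB1 stood at 68.8, 70.1 and 67.1 CPM in the control libraries, 116, 116 and 118 with sh1, and 150, 154 and 144 with sh2. The 3 groups did not overlap, and the order was control, sh1, sh2. Its log2 changes were 0.76 ± 0.038 with sh1 and 1.12 ± 0.036 with sh2 (± SE), and sh1 was lower than sh2 by -0.36 ± 0.034. CCNB2, the other B-type cyclin of mitosis, rose by 0.49 ± 0.051 and 1.01 ± 0.048 in the same order. FOXM1 (2305), the factor that switches on late cell cycle genes, stood at 122, 126 and 128 CPM in control, 170, 168 and 175 in the sh1 libraries, and 218, 209 and 230 in the sh2 libraries. Its log2 changes were 0.45 ± 0.036 and 0.81 ± 0.035.

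CDK1 (983) showed another order. It stood at 77.2, 78.3 and 73.9 CPM in control, 62.4, 61.2 and 59.9 with sh1, and 118, 123 and 106 with sh2. The sh1 libraries lay below all control libraries and the sh2 libraries above them. Its log2 changes were -0.32 ± 0.049 and 0.60 ± 0.044. CCNA2 (890), the A-type cyclin of S phase and early mitosis, stood at 85.5, 87.5 and 91.9 CPM in control, 63.2, 61.6 and 66.1 with sh1, and 186, 174 and 186 with sh2. The groups did not overlap in CCNA2 either, and its log2 changes were -0.47 ± 0.043 and 1.04 ± 0.037. The phosphatase gene CDC25B (994), which activates CDK1 at the start of mitosis, fell with both hairpins. CDC25B stood at 245, 231 and 242 CPM in control, 192, 192 and 185 with sh1, and 165, 164 and 166 with sh2. The related CDC25C rose by 0.27 ± 0.093 with sh1, with 1 sh1 library (12.7 CPM) inside the control range of 11.3 to 13.3, and by 0.78 ± 0.085 with sh2. The sh1 call of CDC25C was lost in DESeq2 (adjusted p = 0.0542), without control library 3 (edgeR adjusted p = 0.0558) and without sh1 library 1 (0.0956). CDCA3, which takes part in the degradation of the CDK1 inhibitor kinase WEE1, rose by 0.24 ± 0.071 and 1.07 ± 0.063. The largest adjusted p among calls against control in this group was 0.0106 (edgeR, CDC25C with sh1).

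Of the 6 kinases outside the cyclin group and the passenger complex, 5 rose with sh1 and all 6 with sh2. All 6 were lower with sh1 than with sh2. These shares were 83.3%, 100% and 100%, beside 34.7%, 34.2% and 35.6% of all genes. PLK1 (5347), the polo-like kinase of spindle and centrosome assembly, stood at 78.9, 78.8 and 80.3 CPM in control, 121, 125 and 128 with sh1, and 164, 163 and 176 with sh2. AURKA (6790), the Aurora kinase of the spindle poles, stood at 66, 65.1 and 65.4 CPM in control, 80.5, 89.7 and 85 with sh1, and 114, 122 and 118 with sh2. BUB1 (699), a kinase of the spindle checkpoint, stood at 84, 76.2 and 79.4 CPM, then 111, 113 and 116, then 149, 147 and 142. In PLK1, AURKA and BUB1 the 3 groups were separate and ran from control to sh1 to sh2. NEK2, a centrosome kinase, rose by 0.45 ± 0.045 and 0.88 ± 0.043, and PBK, a mitotic kinase of the MAPKK family, by 0.34 ± 0.055 and 0.83 ± 0.051. TTK, the checkpoint kinase MPS1, had -0.09 ± 0.047 with sh1, which did not pass (adjusted p = 0.0853, edgeR; 0.0391 without sh1 library 2), and rose by 0.66 ± 0.042 with sh2.

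**Figure D3:**
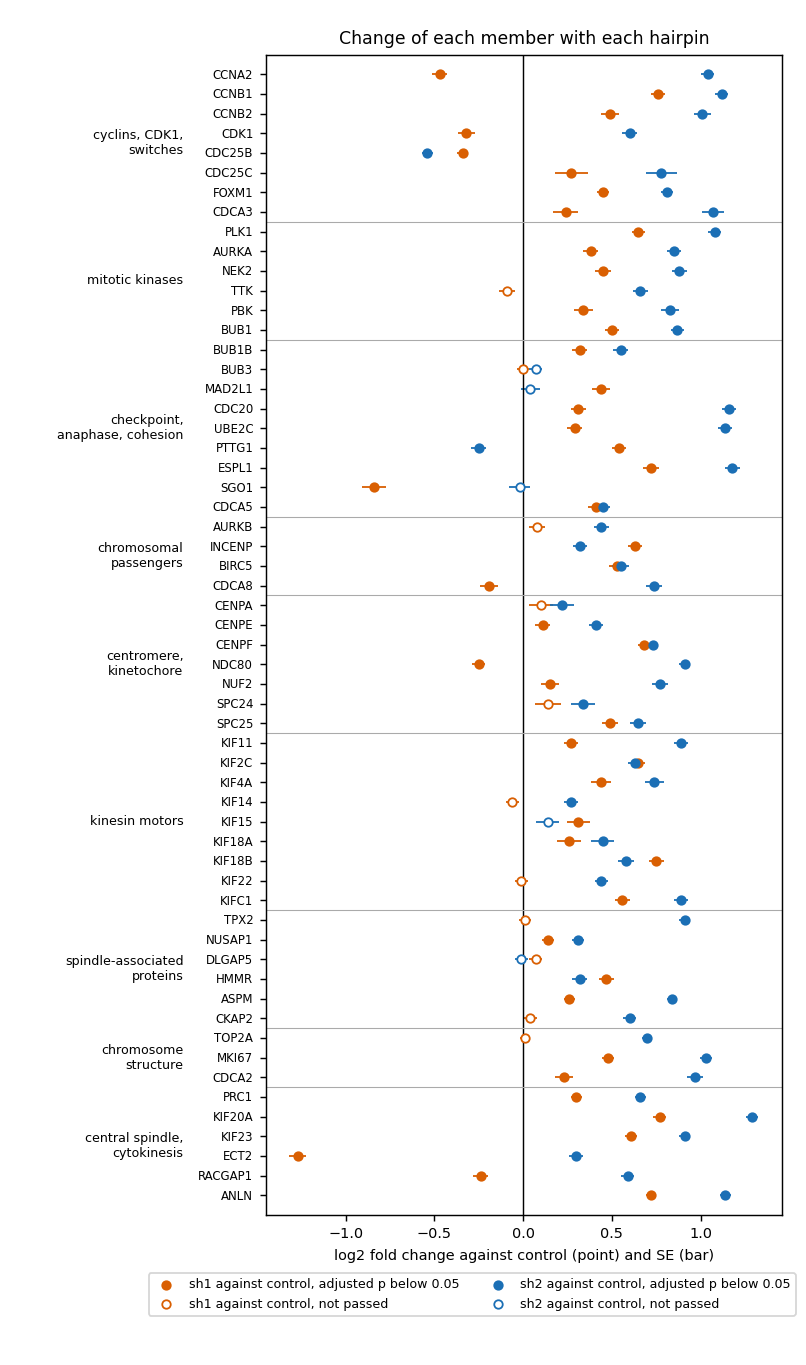
Log2 fold change against control (points) with its SE (bars) for each of the 58 members with sh1 (orange) and sh2 (blue), grouped by role; open points did not pass the adjusted p of 0.05. Both colours use the same 3 control libraries. Blue lies to the right of orange for most members, CDC25B is left of zero in both, and PTTG1 and SGO1 stand out in the checkpoint and anaphase group.

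The genes of the checkpoint and of anaphase mostly rose, with 1 fall with each hairpin. Of 9, 7 rose and 1 fell with sh1 (77.8% and 11.1%, beside 34.7% and 34.6% of all genes). With sh2, 5 rose and 1 fell (55.6% and 11.1%, beside 34.2% and 34.3%). CDC20 (991), the activator of the anaphase promoting complex whose promoter is shown above, stood at 108, 101 and 96.4 CPM in control, 126, 134 and 120 with sh1, and 223, 228 and 231 with sh2. The sh2 libraries stood far above the others, with log2 changes of 0.31 ± 0.042 and 1.16 ± 0.039. UBE2C, the ubiquitin-conjugating enzyme of the same complex, rose by 0.29 ± 0.044 and 1.14 ± 0.040. ESPL1 (9700), which encodes separase, stood at 44.5, 46.4 and 52.2 CPM in control, 80.4, 76.9 and 77.6 with sh1, and 108, 107 and 109 with sh2, again in 3 separate groups.

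PTTG1 (9232) went the other way from separase with sh2. It stood at 67.9, 64.9 and 64.3 CPM in control, 94.4, 94 and 98.7 with sh1, and 55.1, 56.7 and 53.7 with sh2. The sh1 libraries were above and the sh2 libraries below all control libraries, with log2 changes of 0.54 ± 0.039 and -0.25 ± 0.042. Its near-identical copy PTTG2 had 0 to 1 counts per library. MAD2L1 (4085), the checkpoint protein MAD2, stood at 42.2, 43.8 and 43.7 CPM in control, 57.4, 60.9 and 57.6 with sh1, and 49.3, 42.7 and 41.7 with sh2. Control and sh2 overlapped in MAD2L1 and sh1 was above both. SGO1 (151648), shugoshin, which guards cohesin at the centromere, stood at 25.6, 26.2 and 25.4 CPM in control, 14.3, 14.6 and 14.2 with sh1, and 27.2, 25.1 and 23.8 with sh2. SGO1 thus fell with sh1 (-0.84 ± 0.070), and its sh2 and control libraries overlapped (-0.02 ± 0.061).

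Among the other checkpoint genes, BUB1B, the checkpoint protein BUBR1, rose by 0.32 ± 0.042 and 0.55 ± 0.041. It shares exons with a readthrough gene, BUB1B-PAK6 (44 to 238 counts per library). The log2 ratios of their summed CPM were 0.46 with sh1, 0.56 with sh2 and -0.11 for sh1 against sh2, where BUB1B alone had -0.23 ± 0.039. BUB3, the partner of BUB1 and BUBR1 at the kinetochore, ranged from 114 to 124 CPM in control, 118 to 121 in the sh1 and 122 to 128 in the sh2 libraries. It passed in none of the 3 comparisons (lowest adjusted p = 0.0834, edgeR, with sh2). BUB3 did pass with sh2 under upper-quartile scaling (edgeR adjusted p = 0.0287) and without control library 3 (0.0464). CDCA5, sororin, which stabilises cohesin, rose by 0.41 ± 0.042 and 0.45 ± 0.042 and had -0.04 ± 0.040 between the hairpins.

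The chromosomal passenger complex moves from centromeres to the central spindle and corrects faulty attachments. Of its 4 genes, 2 rose and 1 fell with sh1 (50% and 25%, beside 34.7% and 34.6% of all genes). All 4 rose with sh2 (100%, beside 34.2% of all genes). AURKB (9212), its kinase, stood at 55.2, 54.7 and 53.9 CPM in control, 55.7, 56.5 and 60.9 with sh1, and 73.9, 72.3 and 76.2 with sh2. The sh1 values lay just above control and did not pass (0.08 ± 0.045, adjusted p = 0.119, edgeR), while it passed on FPKM values (limma adjusted p = 0.0386) and with upper-quartile scaling (edgeR adjusted p = 0.014). AURKB rose with sh2 by 0.44 ± 0.042. CDCA8 (55143), borealin, stood at 45.6, 41.4 and 44.6 CPM in control, 37.7, 37.9 and 39.6 with sh1, and 73.3, 71.1 and 75 with sh2. It thus fell with sh1 (-0.19 ± 0.051) and rose with sh2 (0.74 ± 0.045). INCENP (3619), the scaffold of the complex, stood at 59.5, 63.3 and 59.1 CPM in control, 95.7, 91.7 and 94 with sh1, and 75.3, 74.4 and 78.1 with sh2. INCENP was higher with sh1 than with sh2 by 0.31 ± 0.038. BIRC5, survivin, rose by 0.53 ± 0.048 and 0.55 ± 0.048 and had -0.02 ± 0.045 between the hairpins. INCENP and CDCA8 both carry CCAAT boxes and a homology region in the sequences printed above, which were chosen among members with a match.

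All 7 centromere and kinetochore genes rose with sh2 (100%, beside 34.2% of all genes). With sh1, 4 rose and 1 fell (57.1% and 14.3%, beside 34.7% and 34.6%). NDC80 (10403), the kinetochore protein that binds spindle microtubules, stood at 153, 161 and 149 CPM in control, 133, 127 and 128 with sh1, and 291, 299 and 283 with sh2. The groups did not overlap, and NDC80 was lower with sh1 than with sh2 by -1.17 ± 0.033. None of its 3 partners in the same complex fell with sh1. NUF2 had 0.15 ± 0.050 with sh1, a call lost in DESeq2 (adjusted p = 0.0717), without control library 2 (edgeR adjusted p = 0.0654) and without sh1 library 2 (0.0559), and rose by 0.77 ± 0.045 with sh2. SPC25 rose by 0.49 ± 0.047 and 0.65 ± 0.045. SPC24 had 0.14 ± 0.071 with sh1, which did not pass (adjusted p = 0.0839, edgeR; it passed with upper-quartile scaling, 0.0202, without control library 2, 0.0252, and without sh1 library 3, 0.0496), and rose by 0.34 ± 0.068 with sh2. CENPF, a large protein of the outer kinetochore, rose by 0.68 ± 0.030 and 0.73 ± 0.030. CENPE, a kinetochore motor, rose by 0.11 ± 0.041 with sh1, a call lost in DESeq2 (adjusted p = 0.0925), on unfiltered FPKM values (limma adjusted p = 0.0513) and without sh1 library 1 (edgeR adjusted p = 0.0705), and by 0.41 ± 0.039 with sh2. CENPA, the histone variant that marks centromeres, had 0.10 ± 0.068 with sh1 (adjusted p = 0.174, edgeR; 0.049 with upper-quartile scaling) and rose by 0.22 ± 0.066 with sh2.

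Of 9 kinesin motors, 7 rose with sh1 and 8 with sh2 (77.8% and 88.9%, beside 34.7% and 34.2% of all genes). None fell with either, where 34.6% and 34.3% of all genes fell. KIF18B (146909), a motor that acts on microtubule ends, stood at 51.9, 51 and 55.9 CPM in control, 88, 90.9 and 87.7 with sh1, and 79.5, 76.3 and 81.9 with sh2. It was higher with sh1 than with sh2 by 0.17 ± 0.040. KIF11, the motor that pushes spindle poles apart, rose by 0.27 ± 0.040 and 0.89 ± 0.038, and KIFC1, a motor of the opposite direction, by 0.56 ± 0.042 and 0.89 ± 0.040. KIF2C, a microtubule depolymerase at the centromere, rose by 0.65 ± 0.036 and 0.63 ± 0.036, and had 0.02 ± 0.034 between the hairpins. KIF4A, a chromosome-bound motor, rose by 0.44 ± 0.055 and 0.74 ± 0.052, and its near-identical copy KIF4B had 0 to 1 counts per library. KIF18A, which limits chromosome movement, rose by 0.26 ± 0.068 and 0.45 ± 0.065. KIF14 and KIF22 rose with sh2 (0.27 ± 0.037 and 0.44 ± 0.036) and did not pass with sh1 (-0.06 ± 0.038 and -0.01 ± 0.038). The direct contrast of sh1 with sh2 passed for KIF14 and KIF22 (-0.33 ± 0.037 and -0.44 ± 0.036). KIF15 (56992), a second motor of bipolar spindles, stood at 21.6, 21.2 and 24.9 CPM in control, 28.2, 27.4 and 28.4 with sh1, and 24.2, 24.8 and 25.4 with sh2. Its rise with sh1 was 0.31 ± 0.065, while sh2 had 0.14 ± 0.065 and overlapped control. KIF15 passed with sh2 without control library 3 (0.21, edgeR adjusted p = 0.00883) and with upper-quartile scaling (0.16, adjusted p = 0.034).

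Among 6 proteins that organise spindle microtubules, 3 rose with sh1 and 5 with sh2 (50% and 83.3%, beside 34.7% and 34.2% of all genes). None fell with either. The share called with sh1, 50%, was below the 69.3% of all genes. TPX2, which activates AURKA on the spindle, rose with sh2 by 0.91 ± 0.031, from 220 to 224 CPM in control to 411 to 423, and had 0.01 ± 0.033 with sh1. ASPM, a protein of the spindle poles, rose by 0.26 ± 0.031 and 0.84 ± 0.030, NUSAP1 by 0.14 ± 0.032 and 0.31 ± 0.032, and HMMR by 0.47 ± 0.042 and 0.32 ± 0.042. CKAP2 had 0.04 ± 0.037 with sh1 (adjusted p = 0.332, edgeR; 0.0374 with upper-quartile scaling) and rose by 0.60 ± 0.035 with sh2. DLGAP5 (9787), a spindle assembly protein also called HURP, stood at 77.2, 81 and 81.6 CPM in control, 85.8, 82.2 and 83.6 with sh1, and 80.5, 80.8 and 77.5 with sh2. DLGAP5 did not pass in any of the 3 comparisons (lowest adjusted p = 0.0814, edgeR, between the hairpins), although upper-quartile scaling called it with sh1 (0.12, adjusted p = 0.00924) and between the hairpins (0.10, adjusted p = 0.0194), as did FPKM values between the hairpins (0.09, limma adjusted p = 0.0467).

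Of the 3 genes of chromosome structure and surface, 2 rose with sh1 and all 3 with sh2. These shares were 66.7% and 100%, beside 34.7% and 34.2% of all genes. TOP2A (7153), the topoisomerase that untangles chromosomes, stood at 371, 367 and 378 CPM in control, 379, 379 and 363 with sh1, and 625, 600 and 584 with sh2. Control and sh1 overlapped in TOP2A, and the sh2 libraries were all higher. MKI67 (4288), which coats mitotic chromosomes and is the common marker of cycling cells, stood at 351, 357 and 370 CPM in control, 498, 489 and 521 with sh1, and 727, 695 and 776 with sh2. MKI67 rose by 0.48 ± 0.034 and 1.03 ± 0.033. CDCA2, which recruits a phosphatase to chromosomes at mitotic exit, rose by 0.23 ± 0.050 and 0.97 ± 0.046.

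The genes of the central spindle and cytokinesis held both the largest rise and the largest fall among the members. KIF20A (10112), a kinesin of the central spindle, stood at 77.2, 76.6 and 78.3 CPM in control, 126, 138 and 133 with sh1, and 187, 188 and 191 with sh2. Its log2 changes were 0.77 ± 0.038 and 1.29 ± 0.036. ANLN (54443), anillin, a scaffold of the contractile ring, stood at 154, 153 and 159 CPM in control, 259, 250 and 258 with sh1, and 341, 339 and 347 with sh2. PRC1, which bundles the microtubules of the central spindle, rose by 0.30 ± 0.031 and 0.66 ± 0.030.

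ECT2 (1894) encodes the exchange factor that activates RhoA at the cleavage site, and stood at 124, 126 and 125 CPM in control, 49.5, 57 and 48.7 with sh1, and 162, 153 and 149 with sh2. The sh1 libraries were below and the sh2 libraries above every control library, with log2 changes of -1.27 ± 0.047 and 0.30 ± 0.039. RACGAP1 (29127) and KIF23 encode the 2 subunits of centralspindlin, which recruits ECT2. RACGAP1 stood at 89, 90.3 and 90.4 CPM in control, 73.8, 77.2 and 76.7 with sh1, and 137, 140 and 129 with sh2. The order of the groups was that of ECT2, with log2 changes of -0.24 ± 0.040 and 0.59 ± 0.036. KIF23 rose by 0.61 ± 0.033 and 0.91 ± 0.032, so that the 2 subunits differed in direction with sh1.

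In all, 7 members were called in opposite directions by the hairpins, where 12.7% of all tested genes were. Of the 58 members, 6 were lower with sh1 and higher with sh2, where 6.38% of all genes were. These were CCNA2, CDK1, NDC80, CDCA8, ECT2 and RACGAP1. Only 1 of the 58, PTTG1, was higher with sh1 and lower with sh2, where 6.3% of all genes were. At 12.1%, the share of members with opposite calls in either direction was near that of all genes.

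**Figure D4:**
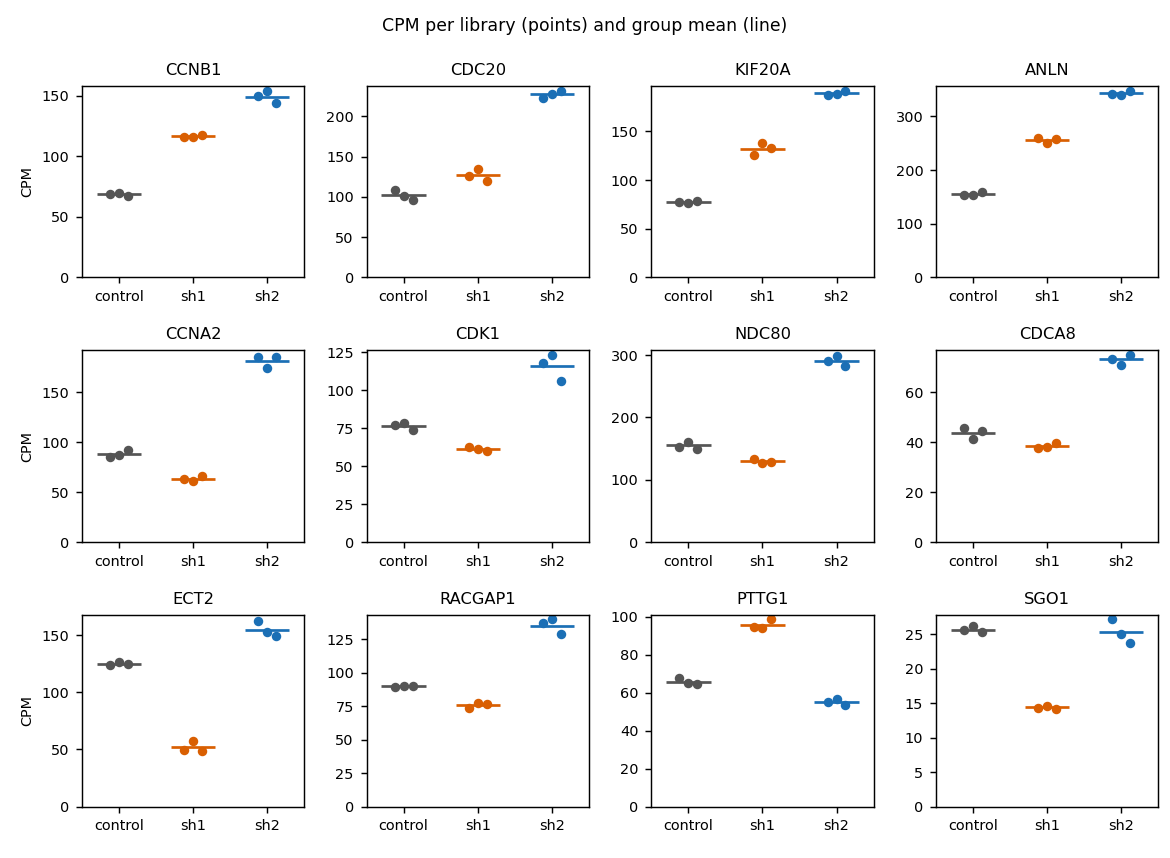
CPM in each library (points) and the group mean (lines) for 12 members in control, sh1 and sh2, with each axis starting at 0. CCNB1, CDC20, KIF20A and ANLN step up from control to sh1 to sh2; CCNA2, CDK1, NDC80, CDCA8, ECT2 and RACGAP1 are lowest with sh1 and highest with sh2; PTTG1 is highest with sh1; and SGO1 is low only with sh1 (14.2 to 14.6 CPM).

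In the direct comparison of the hairpins, the fold change sets sh1 against sh2, and the control libraries enter through the shared spread and scaling. It called 51 of the 58 members, 44 lower and 7 higher with sh1, where 69.8% of all genes were called. The differences past 2-fold were those of ECT2 (-1.58 ± 0.045), CCNA2 (-1.52 ± 0.039) and NDC80 (-1.17 ± 0.033), where 8.28% of all genes were called at that size. CDCA8 (-0.93 ± 0.046), CDK1 (-0.92 ± 0.046) and TPX2 (-0.90 ± 0.031) followed. The members higher with sh1 were PTTG1 (0.79 ± 0.040), MAD2L1 (0.39 ± 0.052), INCENP (0.31 ± 0.038), CDC25B (0.20 ± 0.032), KIF15 (0.18 ± 0.063), KIF18B (0.17 ± 0.040) and HMMR (0.15 ± 0.040). CDC25B was higher with sh1 only in that it fell less. The 7 members that did not pass were BUB3, CDCA5, BIRC5, CENPA, CENPF, KIF2C and DLGAP5, all between -0.12 and 0.07. The largest adjusted p among the calls was 0.0146 (edgeR, KIF15), and the calls of KIF15 and KIF18A were lost in DESeq2 (adjusted p = 0.0874 and 0.0539). The call of KIF15 was also lost without sh2 library 1 (edgeR adjusted p = 0.0534) and that of KIF18A without sh1 library 2 (0.0778). That of SPC24 was lost on filtered FPKM values (limma adjusted p = 0.201) and without sh1 library 1, sh1 library 3 or sh2 library 3 (edgeR adjusted p = 0.0542, 0.0638 and 0.0504).

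**Figure D5:**
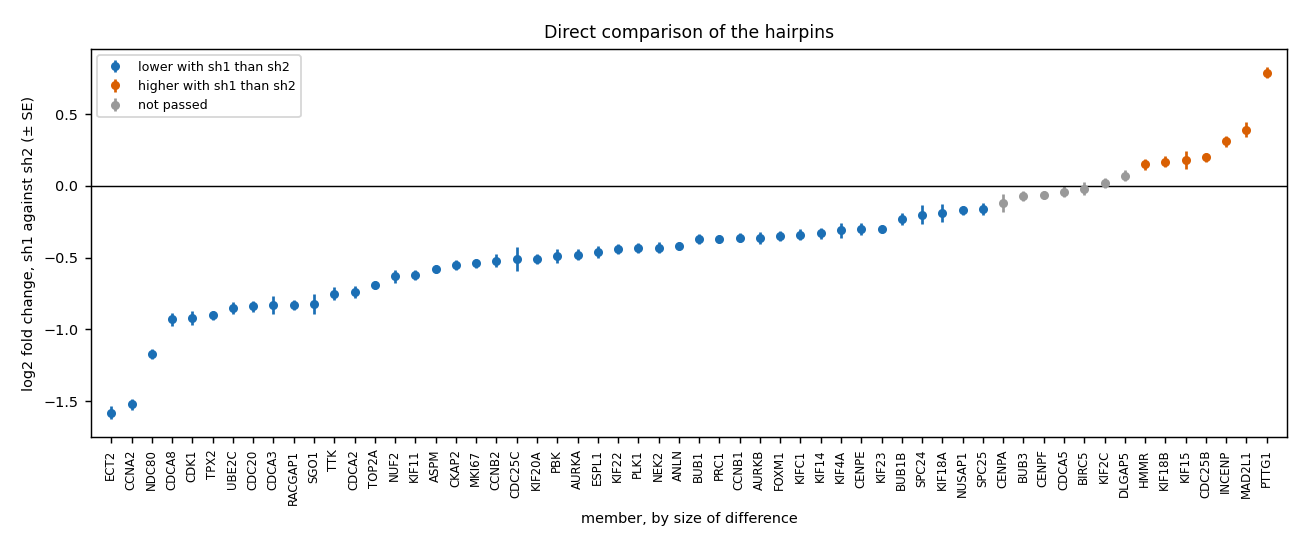
Log2 fold change of sh1 against sh2 (points) with its SE (bars) for the 58 members, ordered by size; blue members were lower with sh1, orange members higher with sh1, and grey members did not pass the adjusted p of 0.05. The points run from -1.58 (ECT2) to 0.79 (PTTG1), with 44 blue, 7 orange and 7 grey.

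Genes of the same pathway outside the 58 members mostly rose as well. Over 8 lists with 127 genes, 126 were tested. Of these, 74 rose and 31 fell with sh1 (58.7% and 24.6%), and 82 rose and 18 fell with sh2 (65.1% and 14.3%), beside the shares over all genes given above. Their medians were 0.17 with sh1 and 0.24 with sh2. Between the hairpins, 37 were higher and 62 lower with sh1 (29.4% and 49.2%, beside 34.2% and 35.6% of all genes). Condensin and cohesin, the rings that shape and hold chromosomes, rose for 10 and fell for 5 of 16 genes with sh1. These shares were 62.5% and 31.2%, beside 34.7% and 34.6% of all genes. With sh2, 14 rose (87.5%, beside 34.2%) and none fell, where 34.3% of all genes fell. STAG1, a cohesin subunit, rose by 0.58 ± 0.065 and 0.70 ± 0.063, and the condensin II subunit NCAPD3 fell by 0.25 on the log2 scale with sh1 and had 0.02 ± 0.038 with sh2.

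At the inner centromere, 13 of 20 genes rose and 2 fell with sh1 (65% and 10%, beside 34.7% and 34.6% of all genes). With sh2, 10 rose and 2 fell (50% and 10%, beside 34.2% and 34.3%). HJURP, the chaperone that loads CENPA, rose by 0.48 ± 0.041 and 1.04 ± 0.038, and CENPQ fell with sh2 (-0.35 ± 0.064) and had 0.12 ± 0.061 with sh1. In the outer kinetochore and checkpoint list of 17 genes, 8 rose and 3 fell with sh1 (47.1% and 17.6%, beside 34.7% and 34.6%). The share called with sh1 was 64.7%, beside 69.3% of all genes. With sh2, 10 rose and 2 fell (58.8% and 11.8%, beside 34.2% and 34.3%). TRIP13, the ATPase that remodels MAD2, rose by 0.63 ± 0.035 and 0.55 ± 0.035, and SKA2 fell with sh2 (-0.31 ± 0.042) and stood at 70 ± 0.876 CPM with sh1, beside 70.2 ± 2.03 in control.

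The anaphase promoting complex and its partners moved in both directions, as did the tested genes as a whole. With sh1, 7 of 17 were higher and 8 lower (41.2% and 47.1%, beside 34.7% and 34.6% of all genes). With sh2, 8 were higher and 4 lower (47.1% and 23.5%, beside 34.2% and 34.3%). CDC27 (996), a core subunit, fell from 122 ± 2.02 CPM in control to 50.7 ± 1.76 CPM in the sh1 libraries (SD, n = 3). It stood at 116 ± 0.836 CPM with sh2. It was lower with sh1 than with sh2 by -1.20 ± 0.039, and its log2 change with sh1 was -1.27, as was that of ECT2. FBXO5, the inhibitor EMI1, rose by 0.52 ± 0.052 and 0.66 ± 0.050.

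Of 12 tested regulators of mitotic entry, 8 rose and 3 fell with sh1 (66.7% and 25%, beside 34.7% and 34.6% of all genes). With sh2, 10 rose and 1 fell (83.3% and 8.33%, beside 34.2% and 34.3%). GTSE1, a microtubule-binding protein of G2, rose by 1.00 ± 0.054 and 1.13 ± 0.053, and ARPP19, an inhibitor of the phosphatase that opposes CDK1, fell by 0.50 and 0.38 on the log2 scale. Of 20 further spindle and centrosome genes, 14 rose and 2 fell with sh1 (70% and 10%, beside 34.7% and 34.6%). With sh2, 17 rose and 1 fell (85% and 5%, beside 34.2% and 34.3%). TROAP, a spindle protein, rose by 0.68 ± 0.045 and 0.96 ± 0.043, while KIF3A, a transport kinesin, fell with sh2 (-0.13 ± 0.054) and had -0.11 ± 0.055 with sh1. Of 12 further cytokinesis and abscission genes, 7 rose and 4 fell with sh1 (58.3% and 33.3%, beside 34.7% and 34.6%). With sh2, 7 rose and 3 fell (58.3% and 25%, beside 34.2% and 34.3%). The citron kinase gene CIT rose by 0.62 ± 0.042 and 0.91 ± 0.041, and SPAST, which severs microtubules, fell by 0.60 and 0.63 on the log2 scale.

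Regulators of these promoters moved in both directions, as did the tested genes as a whole. Of 12 DREAM and MuvB genes, 7 rose and 4 fell with sh1 (58.3% and 33.3%, beside 34.7% and 34.6% of all genes). With sh2, 6 rose and 5 fell (50% and 41.7%, beside 34.2% and 34.3%). MYBL2 (4605), which joins MuvB to activate G2 genes, stood at 204 ± 2.58 CPM in control. It rose to 377 ± 5.12 CPM in the sh1 libraries and 288 ± 2.05 CPM in the sh2 libraries, and was higher with sh1 than with sh2 by 0.39 ± 0.027. E2F5, a partner of the pocket proteins, fell by 0.24 and 0.81 on the log2 scale. Of 14 genes of kinase inhibitors and p53 feedback, 11 were tested, with 4 higher and 3 lower with sh1 (36.4% and 27.3%, near the 34.7% and 34.6% of all genes) and 6 higher and 4 lower with sh2 (54.5% and 36.4%, beside 34.2% and 34.3%). GADD45B, a stress-induced inhibitor of CDK1, fell by 1.29 and 1.64 on the log2 scale. CDKN2C, an inhibitor of the G1 kinases, rose by 1.98 ± 0.198 and 2.15 ± 0.191 from a control level of only 1.38 ± 0.484 CPM.

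Genes of DNA replication and of the step from G1 to S, which precede mitosis, mostly rose with both hairpins. With sh1, 27 of 30 rose (90%, beside 34.7% of all genes) and 2 fell. With sh2, 28 rose (93.3%, beside 34.2% of all genes) and 1 fell. Between the hairpins, 11 were higher and 8 lower with sh1 (36.7% and 26.7%, beside 34.2% and 35.6% of all genes). The median difference was 0.02, beside -0.39 for the 58 mitotic members. Against control, the medians of this list were 0.68 with sh1 and 0.60 with sh2, beside 0.29 and 0.68 for the members. Whether the 2 lists differ was not tested.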

How the data were processed

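Without giving roles, the submitters' processing notes list RSEM 1.2.12, DESeq2 1.4.5, HISAT2 2.0.4, hg19 and Bowtie2 2.2.5. Per the file headers, the authors' tables give expected counts, TPM and FPKM for 19266 Entrez genes. Expected counts as deposited are estimates (70% to 70.4% of values per library were whole within 1e-06) and were rounded. The deposited TPM values were used for levels between genes. The deposited FPKM values entered only alternatives, as log2(FPKM + 1) or log2(FPKM + 0.1). Symbols came from RefSeq (GRCh38.p14), which named 19223 identifiers. No source used here states the strand setting, so overlapping and near-identical genes are uncertain.

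In R 4.3.3, edgeR 4.0.16 kept 13580 genes (filterByExpr), scaled by TMM and fitted all 9 libraries with group as the only term. Each SE was taken from the log2 fold change and the square root of its F statistic. The spread between tables beyond counting noise, as 1 edgeR estimate shared over genes, was a coefficient of variation of 2.33%. Tables of 1 sample differed beyond sampling noise (chi-square per gene 1.41 to 2.44). A floor of 3 counts is 0.187 to 0.204 CPM, for counting error only. Alternatives used DESeq2 1.42.0 and limma 3.58.1, other scalings, no filter, pairs of groups, a block on table number and omission of each library.

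Members, lists and tests were chosen with earlier results of these data known. Genes given with each library's value were 10 members picked for their roles, the 4 highest and 4 lowest log2 changes of each comparison, members with opposite calls, and the highest and lowest TPM (plus the member highest by TPM in any role left unnamed). Of each other list, the genes with the highest and lowest mean change over the hairpins were named.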

Additional observations from a re-analysis of the deposited data

Results flagged for a closer look

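For 7 of the 58 members (12.1%) the calls against control had opposite signs for the 2 hairpins, a share close to the 12.7% of all 13580 tested genes. The direct contrast of sh1 with sh2, whose spread is estimated over all 9 libraries, passed for each of them. Its log2 fold change was -1.58 ± 0.045 for ECT2, -1.52 ± 0.039 for CCNA2, -1.17 ± 0.033 for NDC80, -0.93 ± 0.046 for CDCA8, -0.92 ± 0.046 for CDK1, -0.83 ± 0.037 for RACGAP1 and 0.79 ± 0.040 for PTTG1. The largest adjusted p of these 7 contrasts was 4.85e-17 (quasi-likelihood test of edgeR, Benjamini-Hochberg adjusted, PTTG1). Opposite calls against the same control place the hairpins on opposite sides of it. That these contrasts passed was thus set by the choice of genes and adds no support. In each of the 7 genes all 3 libraries of a group lay on the same side of every library of the other groups. Such separation was likely from the choice by opposite calls. In single pairs of groups, 70.3% to 71.9% of all tested genes did not overlap.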

How the results depend on the processing

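Counts of called members stayed within 1.5 times of the reported counts under all 18 alternatives: 44 to 52 called with sh1, 53 to 55 with sh2 and 49 to 52 between the hairpins. No call of the 26 members given with each library's value changed sign. With upper-quartile scaling the median changes were 0.34 (sh1), 0.70 (sh2) and -0.37 (sh1 against sh2), and the median of all genes was 0.06, 0.02 and 0.03. On FPKM values with a pseudocount of 1, the median between the hairpins was -0.38 with and without a filter. Leaving out each library in turn gave medians of 0.28 to 0.31, 0.66 to 0.70 and -0.41 to -0.38. Over all 58 members, calls lost under some alternative were those of CDC25C, CENPE and NUF2 with sh1 and of KIF15, KIF18A and SPC24 between the hairpins. Calls gained were those of AURKB, CENPA, CKAP2, DLGAP5, SPC24 and TTK with sh1, BUB3 and KIF15 with sh2, and DLGAP5 between the hairpins. The cause was not tested. Same-numbered tables did not deviate together (correlations -0.0767 to 0.0426), and a block on the number gave 9431 genes called with sh1, beside 9409 without it. Depth limited the members with the fewest counts: CDC25C, at 171 to 342 counts, had SEs of 0.093, 0.085 and 0.082. With 1 sample per group, no alternative tests the difference between cultures.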

Other observations

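TOP2B (7155), the other type II topoisomerase of human cells, was looked at after its values were seen. It stood at 219, 227 and 225 CPM in control, 229, 222 and 231 with sh1, and 117, 117 and 117 with sh2. TOP2B thus fell with sh2 (-0.93 ± 0.032), where TOP2A rose by 0.70 ± 0.029, and both overlapped control with sh1. The readthrough gene BUB1B-PAK6, also chosen after its values were seen, rose by 1.85 ± 0.150 with sh1 and 0.82 ± 0.171 with sh2, from 3.77 ± 0.737 CPM in control (SD, n = 3).

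The 38 members with a homology region in any promoter entry had median log2 changes of 0.30 (sh1), 0.68 (sh2) and -0.37 (sh1 against sh2). The 10 members in the promoter table without those letters had 0.29, 0.61 and -0.36. Some of the latter, such as CCNB1, KIF20A and CCNA2, are among the members described in full. The absence of the letters says only that they are not in these windows.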
